A study of Mus musculus with 2 samples.

Results

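The genes described here encode the enzymes that write, copy and remove DNA methylation, and the question was where the DNA-binding protein DPPA2 was mapped in and around them with and without DNA damage. They are a fixed list of 9 genes out of 21887 protein-coding genes, namely the maintenance methyltransferase gene Dnmt1 and its recruiter Uhrf1, the de novo methyltransferase genes Dnmt3a and Dnmt3b with the cofactor gene Dnmt3l, the dioxygenase genes Tet1, Tet2 and Tet3, and the glycosylase gene Tdg. The peaks belonging to them were those with a summit within 1 kb of a gene end, further inside the gene, or outside it by up to 50 kb, with gene positions from RefSeq on mm10. ChIP-seq (sequencing of DNA that comes down with the protein in an immunoprecipitation) was done with one DPPA2 antibody in R1/E cells, a mouse embryonic stem cell line that the study describes as p53+/+, kept on gelatin with serum and leukemia inhibitory factor. There was 1 library of untreated cells, labelled WT, and 1 of cells given adriamycin for 8 h, an anthracycline that poisons topoisomerase and breaks DNA. The treated library carries its treatment in the genotype entry, and its p53 status comes from the description of the series. With 1 library in each group, there is no replicate spread and no test between the groups, and each difference is one between these libraries.

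In mammals DNMT3A and DNMT3B place methyl groups on CpG cytosines, DNMT3L stimulates them, and UHRF1 brings DNMT1 to newly copied DNA so that the pattern is kept. TET enzymes oxidise the methyl group, and TDG cuts out the oxidised bases, which are then replaced by base excision repair. Embryonic stem cells grown in serum have both activities, and DPPA2 with its partner DPPA4 is known as a factor that keeps certain CpG-rich promoters free of methylation in such cells.

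The untreated list held 7043 peaks and the adriamycin list 16229, with median summit pileups of 14 fragments in both. A pileup is the number of fragments over the summit, recovered from the deposited values. The genome-wide background, taken as the lowest local background recovered at any peak of a list, was 1.19 fragments untreated and 1.03 with adriamycin. It was not measured apart from the peaks. The fold of a peak is the enrichment at its summit relative to the surrounding background, as the authors' peak caller gave it, and it ranks peaks within a list only. No input library was used here. Fewer bound cells and less bound protein per cell cannot be told apart in such libraries.

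In the untreated list 4 of the 7043 peaks belonged to the 9 genes, and in the adriamycin list 19 of the 16229. The untreated peaks lay at Dnmt1, Dnmt3a and Tet3. The adriamycin peaks lay at these genes and also at Uhrf1, Dnmt3b, Tet1, Tet2 and Tdg, whereas Dnmt3l had none in either list. All 4 untreated peaks overlapped an adriamycin peak by at least 1 bp, where 79.7% of all untreated peaks did. Of the 19 adriamycin peaks 4 (21.1%) overlapped an untreated one, where 34.4% of all adriamycin peaks did.

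No gene of the list had an untreated peak at a gene end, where 5.78% of all protein-coding genes had one. In the adriamycin list 3 of 9 had one (Dnmt3b, Tet2 and Tdg), where 16.0% of all genes had one and 11.5% had one in the adriamycin list and none in the untreated list. A summit further inside the gene was found for 3 of 9 genes untreated, where 8.16% of all genes had one, and for 4 of 9 with adriamycin, where 17.9% had one. The same 3 genes (Dnmt1, Dnmt3a and Tet3) had an inside summit in both lists, where 7.09% of all genes did. The listed genes are 20150 to 112885 bp long, and long genes hold more summits. Among the 7921 protein-coding genes within that range of length, an inside summit was found in 10.5% untreated and 24.4% with adriamycin, and a gene-end peak in 7.51% and 21.2%.

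With the 50 kb flanks included, 3 of 9 genes had a summit untreated, where 36.4% of all genes did (38.8% within the range of length), and 8 of 9 with adriamycin, where 66.6% did (71.3%). With any summit inside the gene counted, whatever its distance from the ends, 3 of 9 genes had one untreated, where 12.4% of all genes did, and 7 of 9 with adriamycin, where 28.1% did. These shares were not counted within the range of length, where inside summits and gene-end peaks were each more common than over all genes. The median distance from a gene to its nearest summit, counted as 0 inside the gene, was 88792 bp untreated and 0 bp with adriamycin. Over all protein-coding genes it was 91501 bp and 21933 bp, and over those within the range of length 84403 bp and 12028 bp. The untreated count and median were close to those of all genes. With adriamycin 8 of the 9 genes were nearer to a summit than the median of all genes, and the median over all genes was itself shorter in that longer list. Of these 8, Tet1 at 12358 bp lay further away than the median of 12028 bp within the range of length.

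**Figure D1:**
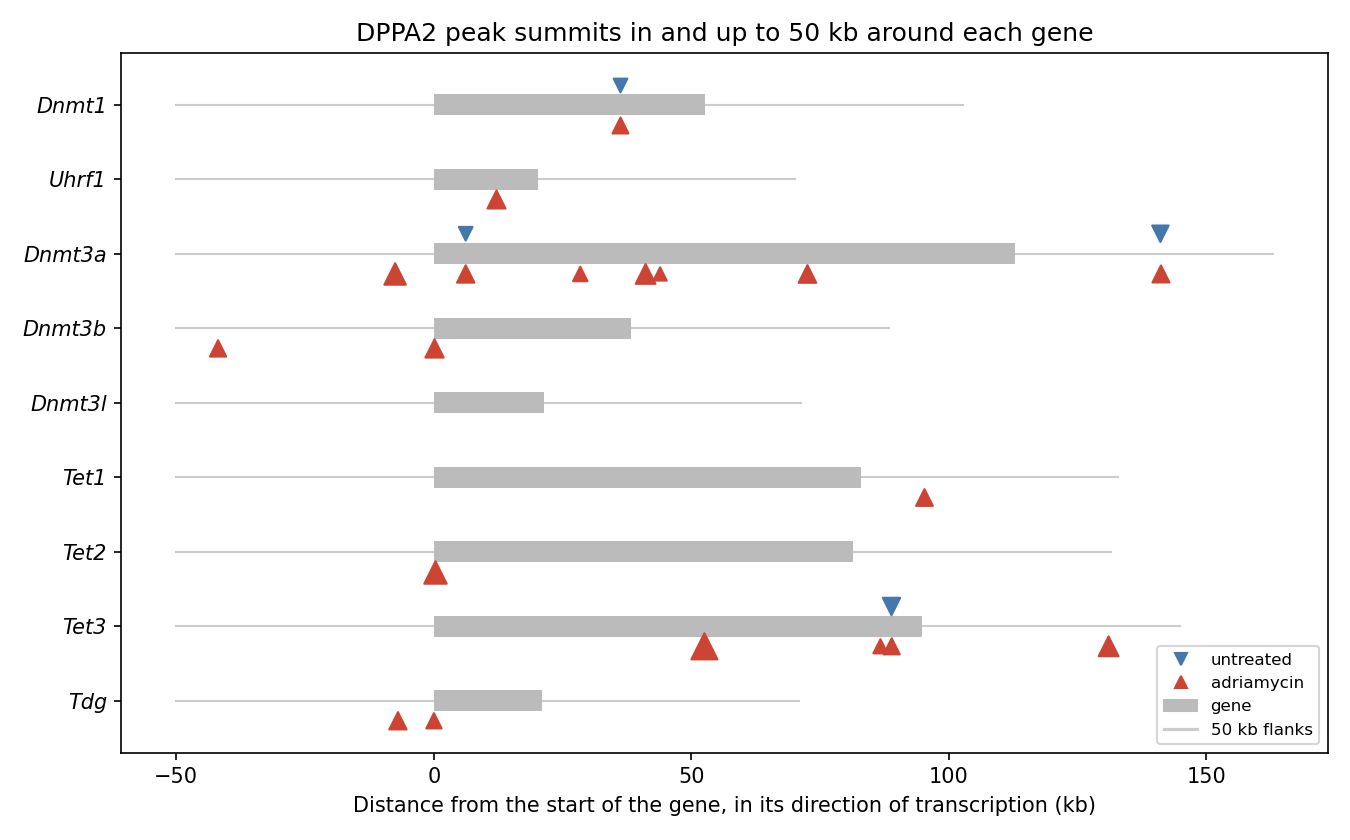
Positions of DPPA2 summits relative to the start of each gene in its direction of transcription (x axis, kb), with each gene as a grey bar and its 50 kb flanks as a line; triangles above are untreated summits, triangles below adriamycin summits, and larger triangles have a larger fold. The 4 untreated summits each stand over an adriamycin summit, and Dnmt3l has none.

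**Figure D2:**
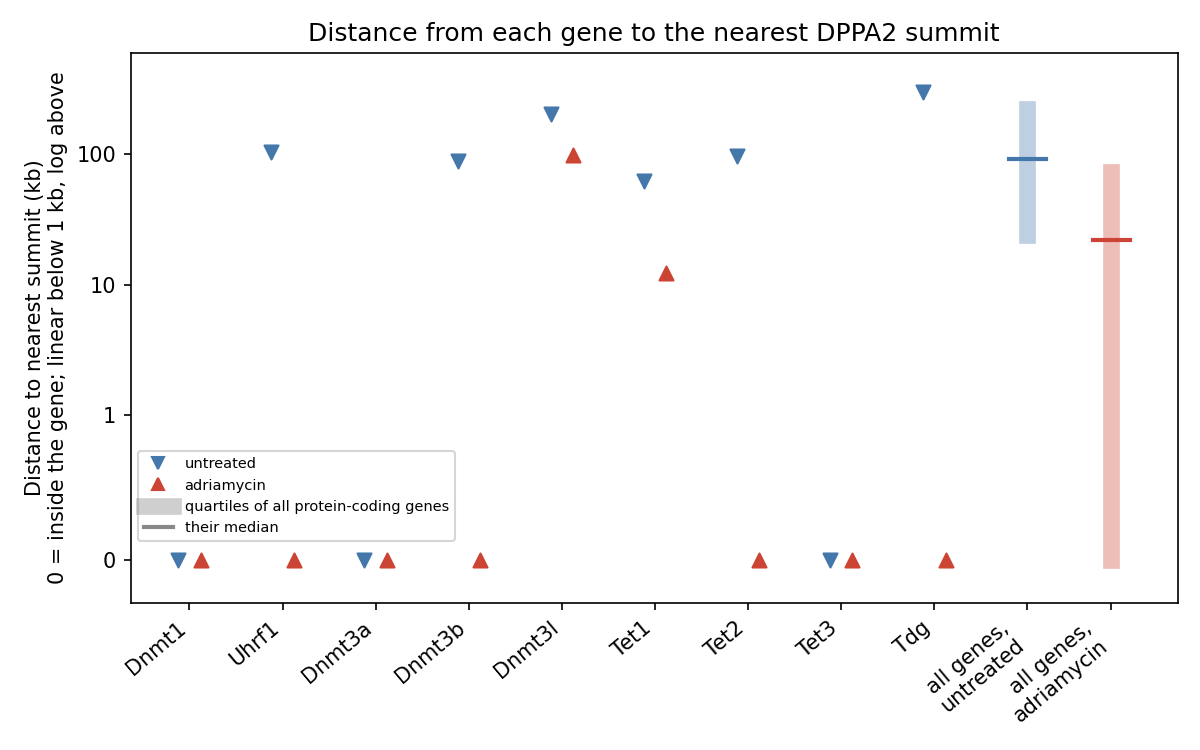
Distance from each gene to its nearest summit (y axis, kb, linear below 1 kb and logarithmic above, 0 for a summit inside the gene) in the untreated and the adriamycin list, beside the quartiles and median of all protein-coding genes. With adriamycin 7 of the 9 genes stand at 0, where 28.1% of all genes do, and untreated 3, where 12.4% do. The share at 0 among genes of like length was not counted.

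The promoter windows of these genes are shown because 4 of them are touched by an adriamycin peak, and none by an untreated one. RefSeq windows (build GRCm38.p6, which is mm10) run from 250 bases before a transcript start to 50 after it, and 16 of them matched the 9 genes. The 250 bases before the start follow, 5′ to 3′ on the gene's strand, with the bases inside the called adriamycin peak in capitals. The first 4 are the touched windows and the last, for Dnmt3l, is a window without a peak.
Tet2, chr3:133544391-133544640, minus strand: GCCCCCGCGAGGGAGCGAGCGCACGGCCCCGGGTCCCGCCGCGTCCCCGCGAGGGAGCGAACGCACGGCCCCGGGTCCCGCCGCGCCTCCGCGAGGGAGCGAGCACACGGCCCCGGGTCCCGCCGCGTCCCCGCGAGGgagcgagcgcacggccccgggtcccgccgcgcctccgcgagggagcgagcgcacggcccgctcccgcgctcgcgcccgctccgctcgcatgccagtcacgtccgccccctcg
Dnmt3a, second start, chr12:3806910-3807159, plus strand: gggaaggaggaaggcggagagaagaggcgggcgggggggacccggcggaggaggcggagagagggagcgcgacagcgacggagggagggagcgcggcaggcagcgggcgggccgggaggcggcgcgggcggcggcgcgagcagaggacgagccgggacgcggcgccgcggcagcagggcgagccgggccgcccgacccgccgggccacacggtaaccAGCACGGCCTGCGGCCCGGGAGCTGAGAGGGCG
Dnmt3b, chr2:153649199-153649448, plus strand: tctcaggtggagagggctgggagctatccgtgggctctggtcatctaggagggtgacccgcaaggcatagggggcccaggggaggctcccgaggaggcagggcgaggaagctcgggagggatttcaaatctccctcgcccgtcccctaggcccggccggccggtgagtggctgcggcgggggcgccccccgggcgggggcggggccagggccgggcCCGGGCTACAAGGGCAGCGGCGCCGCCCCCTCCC
Tdg, chr10:82629588-82629837, plus strand: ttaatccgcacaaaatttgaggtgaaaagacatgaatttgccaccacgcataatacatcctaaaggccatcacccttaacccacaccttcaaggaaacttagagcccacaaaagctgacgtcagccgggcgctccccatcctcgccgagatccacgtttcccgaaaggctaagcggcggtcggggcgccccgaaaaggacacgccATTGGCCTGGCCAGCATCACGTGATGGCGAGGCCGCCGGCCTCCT
Dnmt3l, first start, chr10:78042037-78042286, plus strand: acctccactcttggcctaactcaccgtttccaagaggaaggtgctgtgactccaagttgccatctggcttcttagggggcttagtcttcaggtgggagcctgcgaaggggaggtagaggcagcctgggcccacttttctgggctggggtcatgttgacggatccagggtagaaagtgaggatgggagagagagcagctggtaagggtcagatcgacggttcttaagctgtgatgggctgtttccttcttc
The peaks covered 138 of the 250 printed bases at Tet2, 45 at Tdg, 34 at Dnmt3b and 33 at Dnmt3a, and the rest of each peak lay further upstream at Tet2 and downstream of the start at the other 3.

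The touched windows were rich in CpG. The 300-base window held 57 CpG dinucleotides at Tet2, 47 at the second Dnmt3a start, 30 at Dnmt3b and 26 at Tdg. The 12 windows without a peak held between 2, at the first Dnmt1 start, and 46, at the first Dnmt3a start, which overlaps the touched one. The 3 Dnmt3l windows held 6, 4 and 3. Over all 21263 windows of protein-coding genes the median was 13 (quartiles 4 and 24). The 1796 windows touched by an adriamycin peak (8.45%) had a median of 30 and the others 11. The 570 touched in the untreated list (2.68%) also had a median of 30, against 12 in the others. The CpG content of the touched windows of these genes therefore lay near or above that of touched windows in general.

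**Figure D3:**
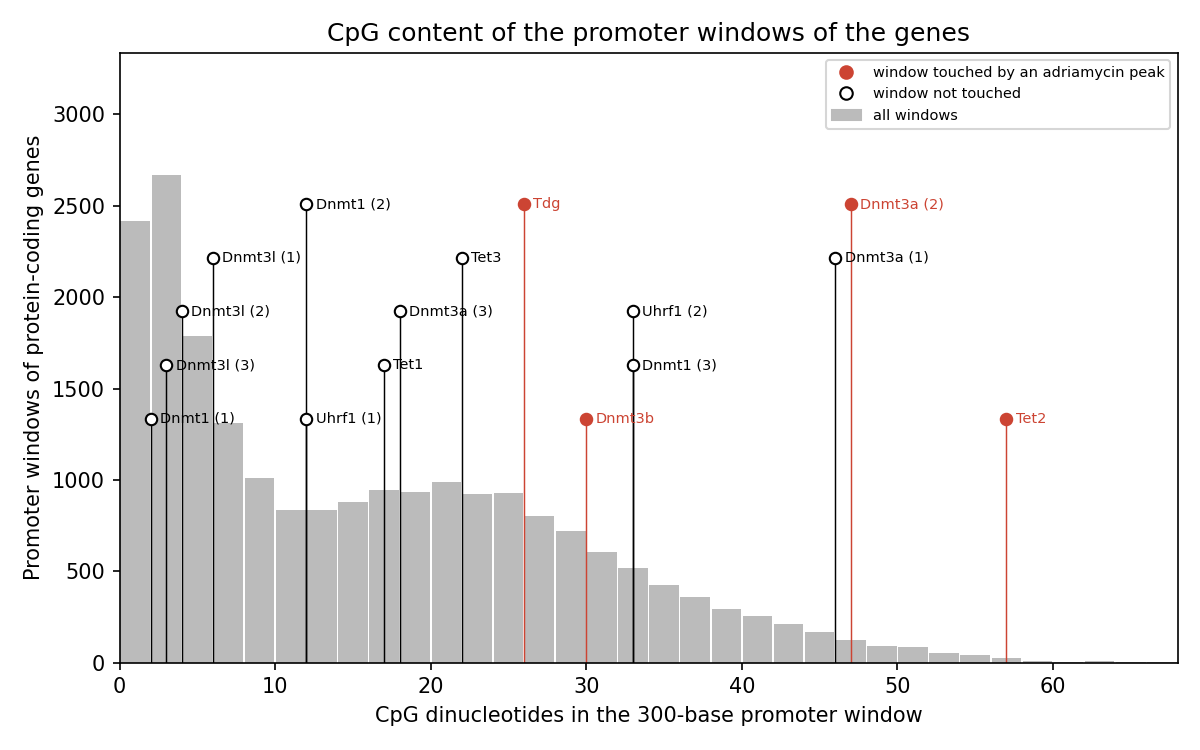
Number of CpG dinucleotides (x axis) in the 300-base RefSeq promoter windows of all protein-coding genes (grey bars, y axis, number of windows) and of the 9 genes (points, at heights chosen for legibility, with the number of the start in brackets where a gene has several). The 4 windows touched by an adriamycin peak, in red, hold 26 to 57.

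Short motifs were counted in the same windows on both strands. GGGCGG, the core of the GC box bound by SP1, was found in 12 of the 16 windows, where 46.2% of all windows held it, with 7 copies at the second Dnmt3a start, 4 at Dnmt3b, 1 at Tet2 and 0 at Tdg. CCAAT, the box bound by NF-Y, was found in 6 of 16, where 38.2% of all windows held it. The decamer of the p53 response element was found in 0 of 16, where 7.37% of all windows held it, which says only that these letters are not in these windows. The Tet2 window also repeats itself. Shifted by 42 bases it matched itself at 67.8% of positions, and 0.047% of all windows were as alike to themselves at any shift of 20 to 100 bases, where the median best match was 33.8%. The part of that repeat in the Tet2 peak was not tested.

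Among the maintenance genes, Dnmt1 had a peak at the same place in both libraries, and Uhrf1 had one in the adriamycin list. Dnmt1 (chromosome 9, 20907206 to 20959888, minus strand) encodes the enzyme that copies methylation after replication. Its peak spanned 20923625 to 20923824 untreated and 20923557 to 20923936 with adriamycin, with summits 44 bp apart at 68.5% and 68.6% of the way from the start of the gene to its far end. The untreated summit had 14 fragments (95% Poisson interval 7.65 to 23.5) and a fold of 3.73, above 4.74% of the untreated list, and the adriamycin summit had 20 fragments (12.2 to 30.9) and a fold of 4.57, above 31.2% of its list. The intervals overlapped. No peak lay near any of the 3 Dnmt1 starts, the nearest summit being 28838 bp from one untreated and 28882 bp with adriamycin.

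Uhrf1 (chromosome 17, 56303337 to 56323486, plus strand) encodes the protein that binds hemimethylated DNA and recruits DNMT1. Its adriamycin peak at 56315140 to 56315567 lay inside the gene, 60.1% of the way along it and 11141 bp from the nearer start. The summit had 22 fragments (13.8 to 33.3), a fold of 5.37 and rank 3593 of 16229 by −log10 q. Untreated summits came no nearer to the gene than 104660 bp.

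Of the de novo genes, Dnmt3a held the most peaks of the 9 genes, Dnmt3b had one at its start with adriamycin, and Dnmt3l had none. Dnmt3a (chromosome 12, 3801559 to 3914443, plus strand) has 3 RefSeq starts in the promoter table. Its first peak was called in both libraries, 596 bp past the second start untreated and 597 bp with adriamycin. It lies 6197 bp untreated and 6198 bp with adriamycin from the start-side end in the gene table, where the gene begins further upstream, and so counts as inside by gene ends, while it is within 1 kb of a transcript start. The untreated peak spanned 3807680 to 3807879 with 15 fragments (8.40 to 24.7) and a fold of 3.72. The adriamycin peak spanned 3807127 to 3808030, covering the start, with 21 fragments (13.0 to 32.1) and a fold of 5.12.

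The summits of that Dnmt3a peak were 1 bp apart in the 2 libraries, where the median over all 5613 shared pairs was 65 bp and 1.91% of pairs were at most 1 bp apart. The called width was 200 bp untreated and 904 bp with adriamycin, 4.52 times as wide, where the median ratio over shared pairs was 1.22 and 0.178% of pairs had a ratio as large. The untreated peak was a weak call, at rank 6062 of 7043 by −log10 q. The untreated peaks in Dnmt1 and past the far end of Dnmt3a were also exactly 200 bp wide. Whether 200 bp is the smallest width the caller gives, which would raise the ratio, was not tested. Of all adriamycin peaks 0.678% were as wide. The pileup intervals overlapped, and scaled to the genome-wide backgrounds the adriamycin summit was 1.62 times the untreated one, where the median over 5603 shared pairs was 1.32 (quartiles 1.07 and 1.59). The corresponding ratio was 1.66 at the Dnmt1 peak.

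Further inside Dnmt3a the adriamycin list held 4 more peaks and the untreated list none. At 3842527 to 3842788 the summit had 19 fragments (11.4 to 29.7) and a fold of 6.06, and at 3873927 to 3874300 it had 17 (9.90 to 27.2) and a fold of 5.23. The other 2 were weaker. The peak at 3829868 to 3830081 had a fold of 4.01, and that at 3845349 to 3845666 a fold of 3.57 and rank 15458 of 16229. With 5 inside summits Dnmt3a was among 0.448% of all genes with at least as many, and 0.543% of the 1105 genes within 20% of its own length.

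Outside Dnmt3a a peak 7507 bp before the gene, at 3793900 to 3794224, had 16 fragments (9.15 to 26.0) and a fold of 6.80 in the adriamycin list, above 82.5% of that list. It lies 8566 bp from Dtnb, the next gene. A peak 28201 bp past the far end was called in both libraries, with 13 fragments (6.92 to 22.2) untreated and 14 (7.65 to 23.5) with adriamycin and summits 108 bp apart, over an overlap of 69 bp. It is nearer to Pomc, at 12301 bp, than to Dnmt3a.

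Dnmt3b (chromosome 2, 153649411 to 153687730, plus strand) encodes the other de novo enzyme, which is abundant in early embryonic cells. Its adriamycin peak at 153649415 to 153649752 covered the transcript start, with its summit 109 bp past it. The summit had 16 fragments (9.15 to 26.0) and a fold of 5.48, above 61.3% of the list, and untreated summits came no nearer than 88792 bp. A second adriamycin peak, with 14 fragments (7.65 to 23.5) and a fold of 4.72, lay 41885 bp upstream and 9404 bp from Commd7. Dnmt3l (chromosome 10, 78042287 to 78063622, plus strand), whose product has no catalytic activity of its own, had its nearest summit at 205798 bp untreated and 99109 bp with adriamycin.

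The TET genes differed in where their peaks lay. Tet2 had one at its start and Tet3 had several inside the gene, while Tet1 had none in the gene. Tet2 (chromosome 3, 133463677 to 133545136, minus strand) encodes a dioxygenase without a CXXC domain of its own. Its adriamycin peak at 133544503 to 133545086 had its summit 191 bp inside the start-side end of the gene and 555 bp upstream of the RefSeq transcript start. The summit lay outside the window printed above, of which the peak covered 138 bases. The summit had 20 fragments (12.2 to 30.9), a fold of 7.19 and rank 2103 by −log10 q, the strongest gene-end peak of the 9 genes. Of the 2107 adriamycin peaks ranked at least as high, 316 (15.0%) had no untreated counterpart. In the untreated list the closest summit lay at 96878 bp.

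Tet3 (chromosome 6, 83362373 to 83457208, minus strand), the TET gene known for its role in the zygote, had 3 inside peaks with adriamycin and 1 untreated. The strongest of all peaks at the 9 genes was an adriamycin peak at 83404429 to 83404905, inside Tet3 and 55.4% of the way along it. Its summit had 32 fragments (21.9 to 45.2) over a local background of 2.74, with a fold of 8.82, above 94.8% of the list, and rank 522 of 16229 by −log10 q. Of the 522 adriamycin peaks ranked at least as high, 9 (1.72%) had no untreated counterpart, this one among them, so that it stood 9th among the 10645 adriamycin peaks without one. The nearest untreated summit was 36304 bp away. The lists give no value for the untreated library at this position.

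The other 2 inside peaks of Tet3 lay close together near its far end. One was called in both libraries, at 83368180 to 83368511 with 21 fragments (13.0 to 32.1) and a fold of 5.14 untreated, and at 83368125 to 83368489 with 25 (16.2 to 36.9) and a fold of 4.64 with adriamycin. The summits were 54 bp apart and the intervals overlapped, with a background-scaled ratio of 1.38. The other, at 83370207 to 83370670 in the adriamycin list, had 21 fragments (13.0 to 32.1) and a fold of 3.90. Local backgrounds at this pair with adriamycin were 4.48 and 4.52 times the genome-wide value, the highest at any peak of the 9 genes, and their part in the calls was not tested. With 3 inside summits Tet3 was among 1.91% of all genes with at least as many, and 3.34% of the 1256 genes within 20% of its own length.

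A further adriamycin peak 36190 bp from Tet3, with 15 fragments (8.40 to 24.7) and a fold of 6.11, lay within 1 kb of an end of both Mob1a and Mthfd2. Tet1 (chromosome 10, 62804570 to 62887469, minus strand), which encodes the TET enzyme most associated with embryonic stem cells, had no peak in the gene. Its nearest adriamycin summit, with 12 fragments (6.20 to 21.0) and a fold of 4.89, was 12358 bp past its far end and 156 bp from an end of Ccar1. Untreated, the closest summit to Tet1 lay at 62440 bp.

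Tdg (chromosome 10, 82629814 to 82650799, plus strand) had a weak adriamycin peak on its start. The peak at 82629793 to 82630031 had its summit 7 bp past the transcript start, the nearest to a start of all these peaks, with 11 fragments (5.49 to 19.7), a fold of 4.32 and rank 13123 of 16229. A second peak, also with 11 fragments and with a fold of 5.08, lay 6955 bp upstream and 369 bp from an end of 1190007I07Rik. Untreated, the closest summit to Tdg lay at 303642 bp. Of the 6 adriamycin peaks outside the 9 genes, 3 lay within 1 kb of the end of another protein-coding gene, those by Tet1, Tet3 and Tdg.

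**Figure D4:**
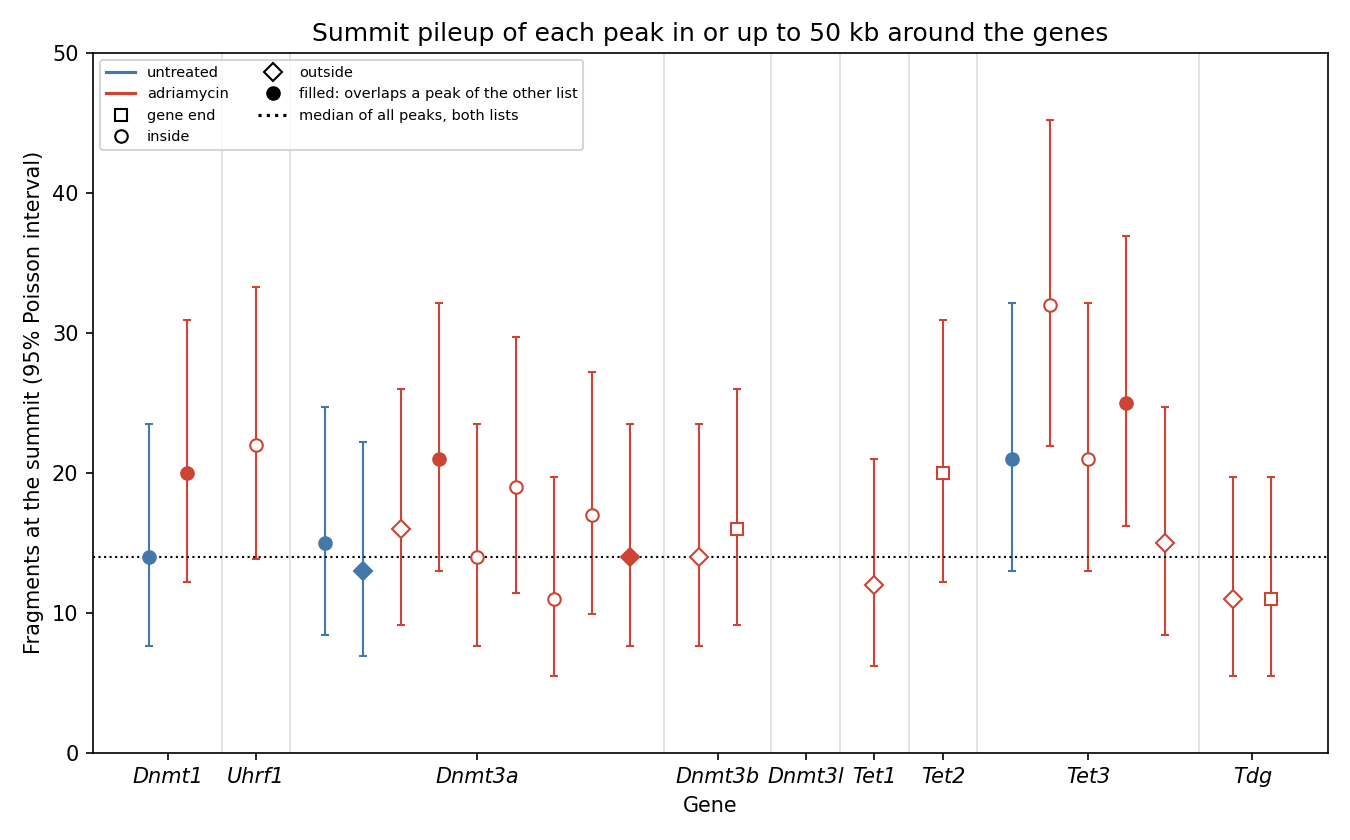
Fragments at the summit of each peak (y axis, points, with exact 95% Poisson intervals for counting error) by gene (x axis), untreated in blue and adriamycin in red, with squares for gene ends, circles for inside and diamonds for outside; filled points overlap a peak of the other list, and the dotted line is the median of 14. The Tet3 peak with 32 fragments is the highest, and each filled blue point has an interval that overlaps that of its adriamycin counterpart.

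By fold, the peaks of these genes stood low in the untreated list and near the middle of the adriamycin list. Their folds ran from 3.72 to 5.14 in the untreated list, with a median of 4.25 where that of the list was 5.16 (lower quartile 4.49), and 0 of 4 stood above the list's median. In the adriamycin list they ran from 3.57 to 8.82, with a median of 5.08 where that of the list was 5.10, and 9 of 19 stood above it. Untreated pileups did not stand low, at 13 to 21 fragments where the list's median was 14 (quartiles 12 and 18). By −log10 q the untreated Tet3 peak ranked 2036 of 7043, the Dnmt3a peaks 4699 and 6062, and the Dnmt1 peak 6331. With peaks placed by the RefSeq starts in place of gene ends, 1 of 9 genes (Dnmt3a) had a summit within 1 kb untreated, where 5.91% of 17492 genes did, and 4 of 9 (Dnmt3a, Dnmt3b, Tet2 and Tdg) with adriamycin, where 15.8% did. A gene counted if any of its starts was that near, and these shares were not matched for number of starts or gene length.

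Other genes of the pathway had gene-end peaks at shares close to those of all genes. Of 57 such genes, 2 (3.51%) had one untreated and 8 (14.0%) with adriamycin, beside 5.78% and 16.0% of all genes. None of the 57 had one in both lists, where 4.51% of all genes did, and where 78.0% of genes with an untreated gene-end peak also had an adriamycin one. With the lists at equal length the adriamycin count was 1 (Gnmt), where 5.73% of all genes had one, and with a q of at most 1e-05 it was 1 and the untreated count 0. With a fold of at least 5 these counts were 2 and 0, so that most of the peaks named next are among the weaker ones. The shares of all genes at these q and fold cutoffs were not counted. Among 9 readers of methylated CpG, the adriamycin list held 1, Uhrf2, the paralog of Uhrf1 (12 fragments, 6.20 to 21.0, fold 4.04), and the untreated list 1, Mbd2, which binds methylated promoters (12 fragments, fold 4.36). Among 12 partners in maintenance and targeting, the adriamycin list held Cdca7 (12 fragments, 6.20 to 21.0, fold 5.00) and the histone methyltransferase gene Setdb1 (8 fragments, 3.45 to 15.8, fold 3.69). The untreated list held Hells, which encodes the remodeller that acts with CDCA7 (13 fragments, 6.92 to 22.2, fold 4.83).

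Downstream of TDG, 2 of 11 base excision repair genes had a gene-end peak with adriamycin, where 16.0% of all genes had one. They were the repair polymerase gene Polb, with a fold of 4.20 and 11 fragments (5.49 to 19.7), and the ligase gene Lig3, with a fold of 4.20 and 10 (4.80 to 18.4). Of 10 genes of methyl donor metabolism, 3 had a gene-end peak with adriamycin, beside the same 16.0% of all genes, and so few genes make the count imprecise. These were Gnmt, with the higher of its 2 peaks at a fold of 5.32 and 19 fragments (11.4 to 29.7), Mat2b, of S-adenosylmethionine synthesis, at 4.32, and Ahcy, which clears S-adenosylhomocysteine, at 3.82. The peaks at Mbd2, Lig3 and Ahcy also lay within 1 kb of the end of a lncRNA gene. None of the 14 regulators of DNMT and TET enzymes, such as Dppa3 and the Gadd45 genes, had a gene-end peak in either list. Of all genes 5.78% had one untreated and 16.0% with adriamycin. The methyltransferase relative Trdmt1 had none.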

How the data were processed

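DPPA2 ChIP-seq peaks of 1 untreated and 1 adriamycin library were used, grouped by the sample labels. Peaks were on build mm10, and the tools were MACS3 3.0.0b1, Bowtie2 2.5.1, deepTools 3.5.1, FastQC 0.12.1 and SAMtools, per the submitters' processing notes. How the caller was run, with which filters and whether with an input, is not given in the sources used. The deposited fold of a peak is the authors' ratio of summit to local background, on each library's own scale. The authors also deposited −log10 p and −log10 q for each summit, the deposited score is the whole part of 10 times −log10 q (in 99.97% and 100% of entries), and a further deposited number gives the summit's offset.

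Peaks off the assembled chromosomes (126 untreated and 142 adriamycin) were left out. Genes came from RefSeq GRCm38.p6, without exons; strand and starts came from the RefSeq promoter table, which held windows for 17492 protein-coding genes. Summit pileups were recovered as the whole number of fragments that yields both fold (pseudocount 1) and −log10 p within 0.001, for 99.9% of peaks in each list, after the step was tested on simulated data. Intervals are exact 95% Poisson intervals for counting error only.

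All 9 genes and their peaks were named by rule, with, outside a gene, the nearest peaks and those with a fold of at least 5. Of 58 other pathway genes 57 matched (Dnmt3c had no entry), and those with a gene-end peak were named. The genes and lists were chosen with earlier results of these data known. Alternatives were other windows, limits, overlaps, stricter q and fold, and equal list lengths. The use of RefSeq starts, self-similarity, summit distance and width, shares among genes of like length, and rank among peaks without a counterpart were added after the data were seen. Python 3.11.15, numpy 2.4.6, pandas 2.3.3, scipy 1.17.1 and matplotlib 3.10.9 were used.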

Additional observations from a re-analysis of the deposited data

How the results depend on the processing

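Of 62 alternative values for 12 results, 41 stayed within 1.5 times the main count or at the same distance and 21 did not. Some of the 41 could not move, so the tally is no measure of robustness. At equal length the untreated list is the whole list, so its counts and median distance repeat, apart from shared peaks. The untreated gene-end count of 0 also cannot fall with a smaller window or a stricter q or fold. With lists of equal length (the strongest 7043 of each), 2 genes kept a gene-end peak with adriamycin, where 5.73% of all genes had one. It was 3 in the whole list, Tdg being the one lost, and 0 untreated. A summit in the gene or within 50 kb was found for 6 genes with adriamycin, against 3 untreated, where 36.4% of all genes had one. The share of all genes within 50 kb was not counted for the shortened adriamycin list, so the 6 has no background. Other pathway genes with a gene-end peak with adriamycin came to 1. With a q of at most 1e-05 the untreated list had 1 gene with an inside peak, 1 with a summit within 50 kb, 0 other pathway genes and a median distance of 112950 bp, and 1 peak was shared in each list; with adriamycin 1 other pathway gene had a gene-end peak. With a fold of at least 5 the untreated values were 1, 1, 0 and 206289 bp, 0 peaks were shared in either list, and 2 other pathway genes had a gene-end peak with adriamycin. The shares of all genes at these q and fold cutoffs were not counted, so these counts also have no background. With an overlap of at least 50% of both peaks, 2 peaks were shared in each list. A limit of 100 kb gave 6 genes untreated, where 52.3% of all genes had a summit within that distance. A window of 500 bp gave 1 other pathway gene untreated, and the share of all genes was not counted for that window. Counting summits at any distance from the ends gave 7 genes with adriamycin, where 28.1% of all genes had one. RefSeq starts gave 1 gene untreated, where 5.91% of genes with a window had a summit within 1 kb. Some of these settings shorten the peak lists and others change the rule of counting, and the reason for each shift was not tested. Pileups of 11 to 32 fragments limit the precision of each peak. No paired analysis was possible because each group has 1 library.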
